A study of Mus musculus with 6 samples.

Results

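The circadian clock genes Per1, Per2, Bmal1 (also named Arntl) and Nr1d1, and the clock output gene Dbp, were examined in the brains of 21-day-old offspring. They are 5 of the 32623 genes of the deposited count table and were taken by rat Ensembl identifier: ENSRNOG00000007387 (Per1), ENSRNOG00000020254 (Per2), ENSRNOG00000014448 (Bmal1), ENSRNOG00000021027 (Dbp) and ENSRNOG00000009329 (Nr1d1). The symbols come from the list that defined the genes, since the table holds identifiers alone. All 5 genes were found in the table and all 5 passed the filter on low counts.

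Sequencing covered 3 offspring per maternal diet, high-fat (MHFD) or normal (MND), and each animal's brain gave a library of its own. MHFD dams received the high-fat food from before mating until the end of suckling, and the MND dams received normal food throughout. As the paper words it, the wait before mating was not the same for the MHFD and MND dams. Any effect of that timing cannot be told apart from that of the diet. The study describes Sprague-Dawley rats, whereas the labels give mouse and the strain C57BL/6 for all 6 samples. All identifiers in the table are of the rat. The dam, the sex and the hour of collection of each sequenced animal are not given in the sources used here. The marker genes of brain regions and cell types could not be checked without symbols, and the labelled tissue, brain, was taken as given. In bulk tissue, fewer cells of a type and less RNA per cell cannot be told apart.

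The clock is a feedback loop of transcription. BMAL1 and its partner CLOCK bind E-box motifs and turn on Per1, Per2, Nr1d1 and Dbp. The PER proteins then repress BMAL1 and CLOCK, while NR1D1 (REV-ERB alpha) represses Bmal1 through REV-ERB response elements. DBP, a PAR bZIP factor, acts on D-box motifs of further genes. Transcripts of these genes rise and fall over the day in most tissues, with Bmal1 in a phase far from those of Dbp and Nr1d1. Per1 and Per2 also respond to light, neuronal activity and glucocorticoids.

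To show what these motifs look like near a clock gene, promoter windows of the mouse were searched, as the reference at hand was of the mouse (RefSeq, GRCm38.p6). They are not the rat sequences from which the counts came. Each window spans 250 bases before to 50 bases after a transcription start. Of the 5 genes, 4 had windows, 6 windows in all, and no entry was held for Per2. On both strands, the E-box CACGTG, the D-box TTATGNAA and the core of the REV-ERB response element, AGGTCA, were searched; none of the matches overlapped another. Matches were found in 2 of the 6 windows, which are printed 5′ to 3′ with the matches in capitals. The Per1 window lies on the plus strand at chr11:69098699-69098998 and the Bmal1 window on the plus strand at chr7:113207261-113207560.
Per1: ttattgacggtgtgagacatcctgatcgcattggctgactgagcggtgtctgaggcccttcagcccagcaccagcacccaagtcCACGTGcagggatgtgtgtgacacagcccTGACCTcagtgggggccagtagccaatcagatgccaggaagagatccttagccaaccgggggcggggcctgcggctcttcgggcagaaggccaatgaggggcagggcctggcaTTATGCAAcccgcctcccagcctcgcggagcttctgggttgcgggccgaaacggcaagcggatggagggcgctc
Bmal1: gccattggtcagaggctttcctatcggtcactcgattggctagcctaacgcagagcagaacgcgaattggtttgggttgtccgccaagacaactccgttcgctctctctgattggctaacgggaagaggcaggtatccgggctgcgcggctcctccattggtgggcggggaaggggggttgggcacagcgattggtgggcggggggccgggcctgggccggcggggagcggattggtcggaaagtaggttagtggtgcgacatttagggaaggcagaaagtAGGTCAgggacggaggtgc
The Per1 window held an E-box, a D-box (TTATGCAA) and, on the opposite strand, AGGTCA, which reads TGACCT here. The Bmal1 window held AGGTCA alone. No match to any of these motifs was found in the Dbp window, the Nr1d1 window or the other windows of Per1 and Bmal1. Of all 32851 windows in the reference, 7.15% held the E-box, 3.38% the D-box and 16.3% AGGTCA. A match is a run of letters and not a measured binding site.

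The 6 libraries held between 43679373 and 61385917 counts in all. Each of the 5 genes had at least 1324 counts in every library, where counting error alone gives a coefficient of variation of 2.75%, or 5.50% if each fragment added 4 counts. The spread between animals of a group was larger, from 12.1% to 32.6%. Values are given in CPM, the counts per 1000000 counts of the library after scaling by the trimmed mean of M-values (TMM), and are compared only between libraries for the same gene, as gene lengths were not used.

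None of the 5 genes passed the test of a difference between MHFD and MND offspring. In the quasi-likelihood test of edgeR, fitted and adjusted by the Benjamini-Hochberg method over all 16776 tested genes, the adjusted p lay between 0.643 and 0.951. At an adjusted p under 0.05 edgeR called 0 of 5, against 0.00596% of all tested genes, and at an unadjusted p under 0.05 also 0 of 5, against 8.68%. DESeq2's Wald test called 0 of 5 at an adjusted p under 0.05, against 1.17% of all tested genes, and 0 of 5 at an unadjusted p under 0.05, against 10.5%. With limma-voom the number was 0 of 5 at each threshold, against 0% of all tested genes with and 8.49% without adjustment. The values of the MHFD and MND groups overlapped for all 5 genes, while they did not overlap for 13.9% of all tested genes. The fitted difference was negative for 4 genes and positive for Dbp, and the median absolute log2 fold change of the 5 genes was 0.17, the same as the 0.17 of all tested genes.

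Per1 encodes the first of the PER repressors. Its level was 68.3, 127 and 91.1 CPM in the MHFD brains (given here and from here on as replicates 1, 2 and 3), against 91.2, 89.8 and 141 CPM in the MND brains. The lowest library and the second highest were both MHFD, and the highest was MND replicate 3. The groups averaged 95.6 ± 29.7 CPM in MHFD and 107 ± 29.3 CPM in MND (SD, n = 3 each). The difference, as a log2 fold change, was -0.17 with a standard error of 0.27 and an adjusted p of 0.887 in edgeR, and the 95% interval for the fold ran from 0.572 to 1.38. The sign of the Per1 difference turned when either MHFD replicate 1 (0.0234 on the log2 scale) or MND replicate 3 (0.0788) was left out.

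Per2 encodes the second PER repressor. It stood at 51.3, 60.8 and 48.5 CPM in the MHFD brains and at 58.4, 57.2 and 98.1 CPM in the MND brains. MND replicates 1 and 2 lay among the MHFD libraries, below MHFD replicate 2, and MND replicate 3 lay far above all others. The means were 53.5 ± 6.48 CPM in MHFD and 71.2 ± 23.2 CPM in MND (SD, n = 3 each). Per2 had a log2 fold change of -0.41 and the lowest p of the 5 genes in edgeR, 0.109 before and 0.643 after adjustment, with a standard error of 0.22. Its interval for the fold ran from 0.519 to 1.09. Without MND replicate 3 the difference was -0.11 on the log2 scale, and without any other single library it lay between -0.55 and -0.34.

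Bmal1, the activator of the loop, was the least variable of the 5 genes across the 6 libraries. The MHFD brains had 43.6, 27.9 and 34.9 CPM, and the MND brains 35.6, 31.6 and 43.6 CPM. MHFD replicate 1 and MND replicate 3 were the highest and almost equal. The means were 35.5 ± 7.86 CPM in MHFD and 37.0 ± 6.10 CPM in MND (SD, n = 3 each). Bmal1 thus had the smallest log2 fold change, -0.0591 with a standard error of 0.19 (edgeR adjusted p = 0.951), and an interval for the fold from 0.701 to 1.31. The sign turned without MHFD replicate 2 (0.0885) or MND replicate 3 (0.0772).

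Nr1d1, the nuclear receptor that represses Bmal1, had 86.6, 65.7 and 91.3 CPM in the MHFD brains. In the MND brains it had 84.8, 66.0 and 111 CPM. In each group replicate 2 was the lowest library, and the 2 lowest libraries differed by less than 1 CPM. The means were 81.2 ± 13.6 CPM in MHFD and 87.3 ± 22.7 CPM in MND (SD, n = 3 each). The log2 fold change of MHFD over MND was -0.11, with 0.21 as the standard error, an edgeR adjusted p of 0.912 and an interval for the fold from 0.657 to 1.32. The difference turned to 0.0268 without MHFD replicate 2 and to 0.11 without MND replicate 3.

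Dbp, the output gene of the loop, was the only one with a higher mean in the MHFD group. Its level was 51.0, 92.6 and 77.0 CPM in the MHFD brains and 65.7, 40.4 and 62.4 CPM in the MND brains. MHFD replicates 2 and 3 were above all MND libraries, whereas MHFD replicate 1 was below 2 of them. The means were 73.5 ± 21.0 CPM in MHFD and 56.1 ± 13.8 CPM in MND (SD, n = 3 each). Dbp was 0.39 higher on the log2 scale in MHFD, with a standard error of 0.26 and a p of 0.181 before and 0.700 after adjustment in edgeR; the interval for the fold, from 0.852 to 2.01, included no change. Without MHFD replicate 1 the difference was 0.59, with an unadjusted p of 0.0401 and an adjusted p of 0.271 in the same edgeR test. That fit gave an unadjusted p under 0.05 to 2904 of 17120 tested genes, against 1456 of 16776 with all libraries. Without MHFD replicate 2 the Dbp difference was 0.19.

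**Figure D1:**
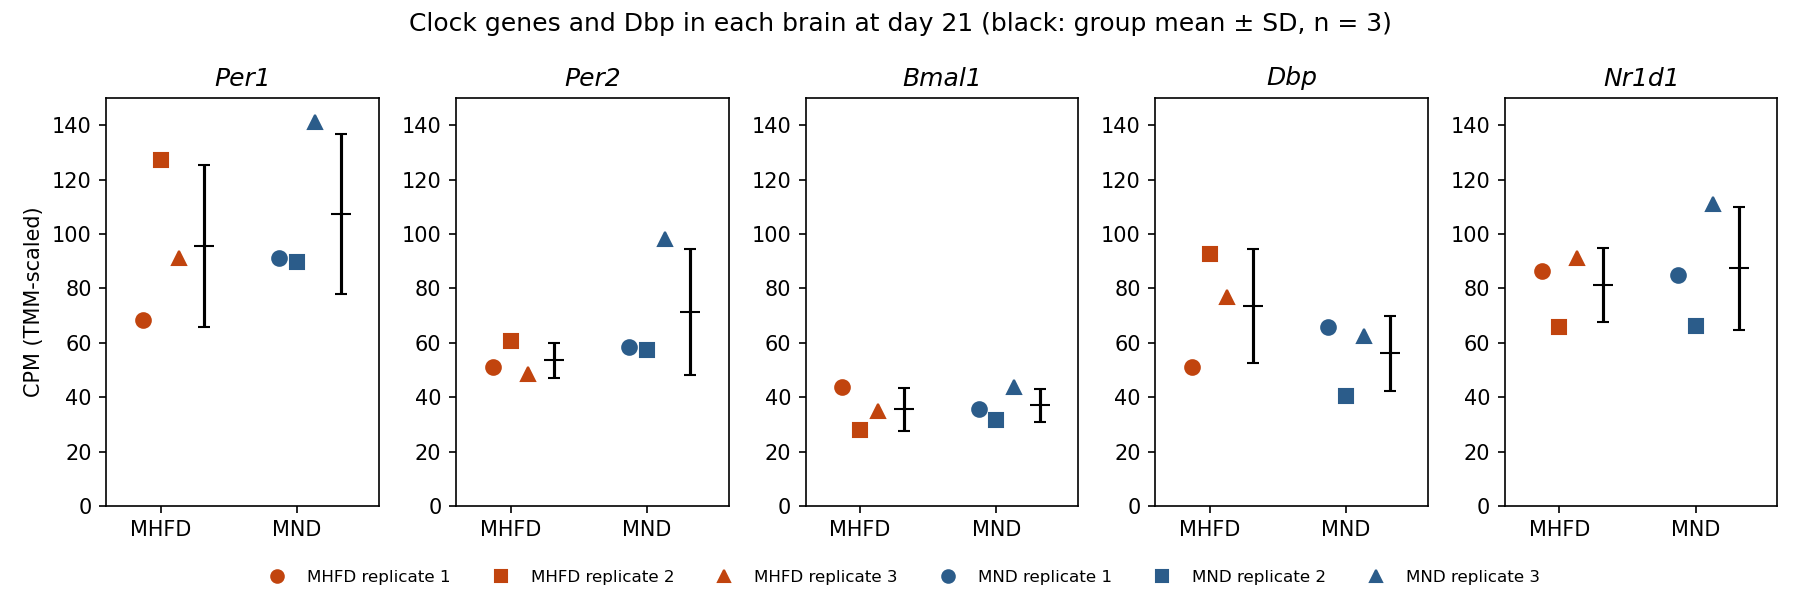
Level of the 5 genes in CPM (vertical axis, TMM-scaled) in each library of the MHFD (orange) and MND (blue) groups; the symbol gives the replicate number and the black bar the group mean ± SD (n = 3). The groups overlap in every panel, and MND replicate 3 is the highest library for Per1, Per2, Bmal1 and Nr1d1 but not for Dbp. For Bmal1 it is almost level with MHFD replicate 1.

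**Figure D2:**
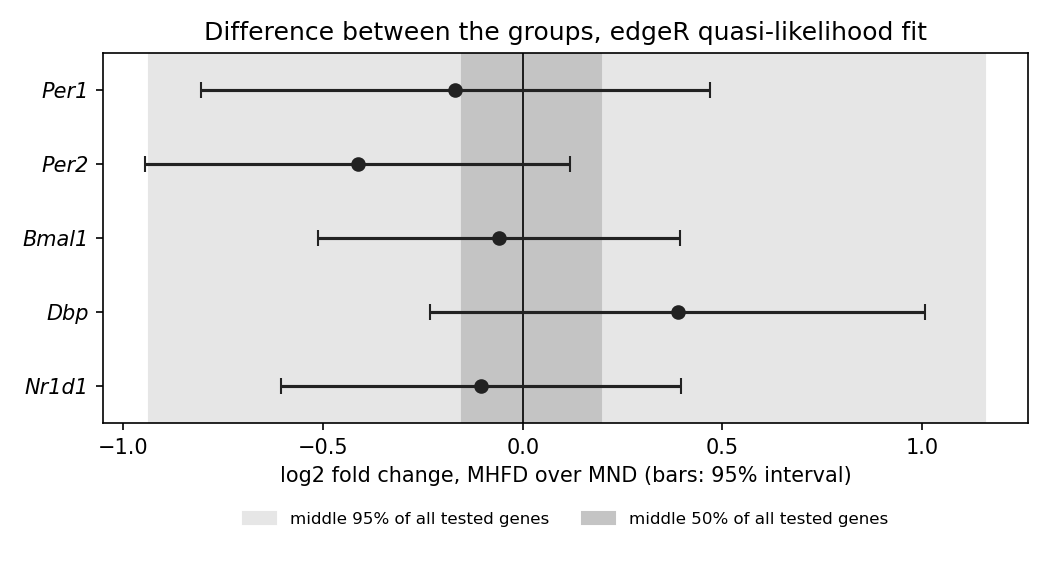
Log2 fold change of MHFD over MND for each gene with its 95% interval (horizontal axis) from edgeR's quasi-likelihood fit; grey bands hold the middle 50% and the middle 95% of all 16776 tested genes. All 5 intervals include 0, and 3 points lie outside the middle 50%, those of Per1 (-0.17) and Per2 (-0.41) below it and that of Dbp (0.39) above it.

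The 5 genes varied more between the brains than most genes of like level. Across the 6 libraries, the SD of log2 CPM was 0.42 for Dbp, 0.38 for Per1, 0.36 for Per2, 0.29 for Nr1d1 and 0.25 for Bmal1, beside a median of 0.25 over all tested genes. Among genes whose mean log2 CPM lay within 0.5 of the gene's own, Dbp was at percentile 92.9, Per1 at 91.3, Per2 at 89.9, Nr1d1 at 83.4 and Bmal1 at 77.6. The highest library exceeded the lowest 2.29-fold for Dbp, 2.07-fold for Per1, 2.02-fold for Per2, 1.69-fold for Nr1d1 and 1.56-fold for Bmal1. These are descriptions of 6 libraries, and the genes were chosen with earlier results known.

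The libraries had different profiles over the 5 genes. MHFD replicate 2 combined the highest Dbp and the second highest Per1 with the lowest Bmal1 and the lowest Nr1d1. MHFD replicate 1 showed nearly the opposite, with the lowest Per1, the second lowest Dbp and Per2, and the second highest Bmal1. In log2 CPM, the deviation of Per1 from its mean over all libraries was -0.53 in MHFD replicate 1 and 0.37 in MHFD replicate 2, while the deviation of Bmal1 was 0.29 in MHFD replicate 1 and -0.36 in MHFD replicate 2. MND replicate 3 had 4 genes at their highest, from 0.29 above the mean for Bmal1 to 0.69 for Per2, with Dbp at its mean. For Bmal1 it was almost equal to MHFD replicate 1, and below it without TMM scaling (42.9 against 43.4 CPM). MND replicate 1 was the library nearest to the mean, with Per1 the farthest of its 5 genes at -0.11. MND replicate 2 was below the mean for all 5 genes, with Dbp at its lowest.

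**Figure D3:**
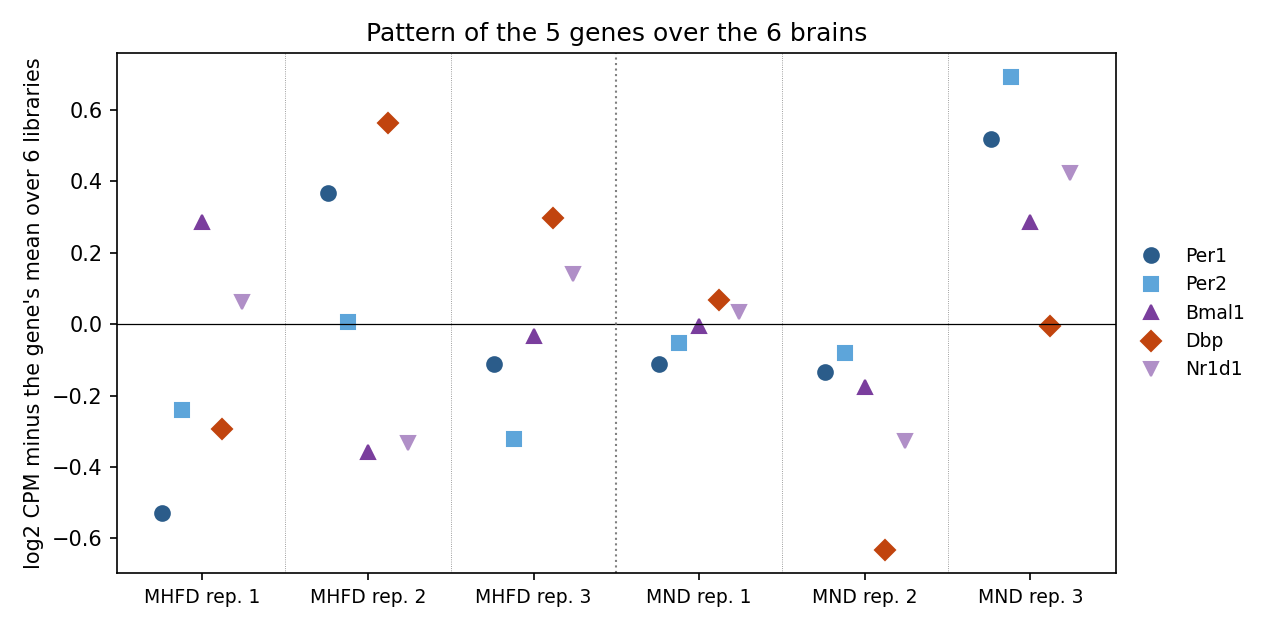
Log2 CPM of each gene minus its own mean over the 6 libraries (vertical axis), shown side by side for each library (horizontal axis). In MHFD replicate 2, Per1 and Dbp lie above 0 and Bmal1 and Nr1d1 below it; in MND replicate 3, Per1, Per2, Bmal1 and Nr1d1 lie together above 0.

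How the genes moved together was examined over the 10 pairs. The largest positive correlations across the 6 libraries were those of Per1 with Per2 and of Bmal1 with Nr1d1, and neither passed adjustment over the 10 pairs. For Per1 and Per2, Pearson's r was 0.79 (exact permutation p = 0.0375, adjusted 0.201) and Spearman's rho was 0.83 (exact permutation p = 0.0583, adjusted 0.292). For Bmal1 and Nr1d1, r was 0.84 (exact permutation p = 0.0403, adjusted 0.201) and rho was 0.83 (exact permutation p = 0.0583, adjusted 0.292). All tests were two-sided.

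Both relations were as large within the groups: on deviations from the mean of each group, r was 0.80 for Per1 with Per2 and 0.84 for Bmal1 with Nr1d1. Without MND replicate 3 and MHFD replicate 2, the libraries farthest from the median on the horizontal axis for both pairs, r over the 4 libraries left was 0.33 for Per1 with Per2 and 0.60 for Bmal1 with Nr1d1 (exact permutation p = 0.875 and 0.417). Taking out the most distant libraries narrows the range of values, and 4 libraries allow few pairings, which limits how low p can go. With a single library left out, r stayed positive, from 0.63 to 0.89 for Per1 with Per2 and from 0.76 to 0.94 for Bmal1 with Nr1d1. As a description, 2.78% of the 16775 other tested genes had a larger r with Per1 than Per2 had, and 2.23% had a larger r with Bmal1 than Nr1d1 had. Both pairs were picked for their large r, which favours small shares. For the other pairs of members this share ran from 14.5% (Per1 with Dbp) to 70.5% (Bmal1 with Dbp), taken for the gene named first.

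For the other 8 pairs, r lay between -0.34 (Bmal1 and Dbp) and 0.50 (Per1 and Dbp), with exact permutation p from 0.315 to 0.956 before adjustment. The relation of Dbp to Bmal1 had an r of -0.34 (rho -0.37, exact permutation p = 0.506 and 0.497), and r was -0.92 without MND replicate 2 and 0.19 without MHFD replicate 2. Per1 and Bmal1 had an r of -0.22 over all libraries and of -0.94 without MND replicate 3. Of these 8 pairs, 7 changed sign when a single library was left out, and Per1 with Dbp did not, with r from 0.29 to 0.68. Within MHFD and MND alone, r was positive in both for Per1 with Dbp (0.97 and 0.44) and Per2 with Dbp (0.56 and 0.45). The rest of these pairs were negative in MHFD and positive in MND, among them Per1 with Bmal1 (-0.999 and 0.94). Each r within a group rests on 3 libraries, where a large r of either sign arises easily. The pairs also share genes and libraries, and a difference in r between the groups was not tested.

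**Figure D4:**
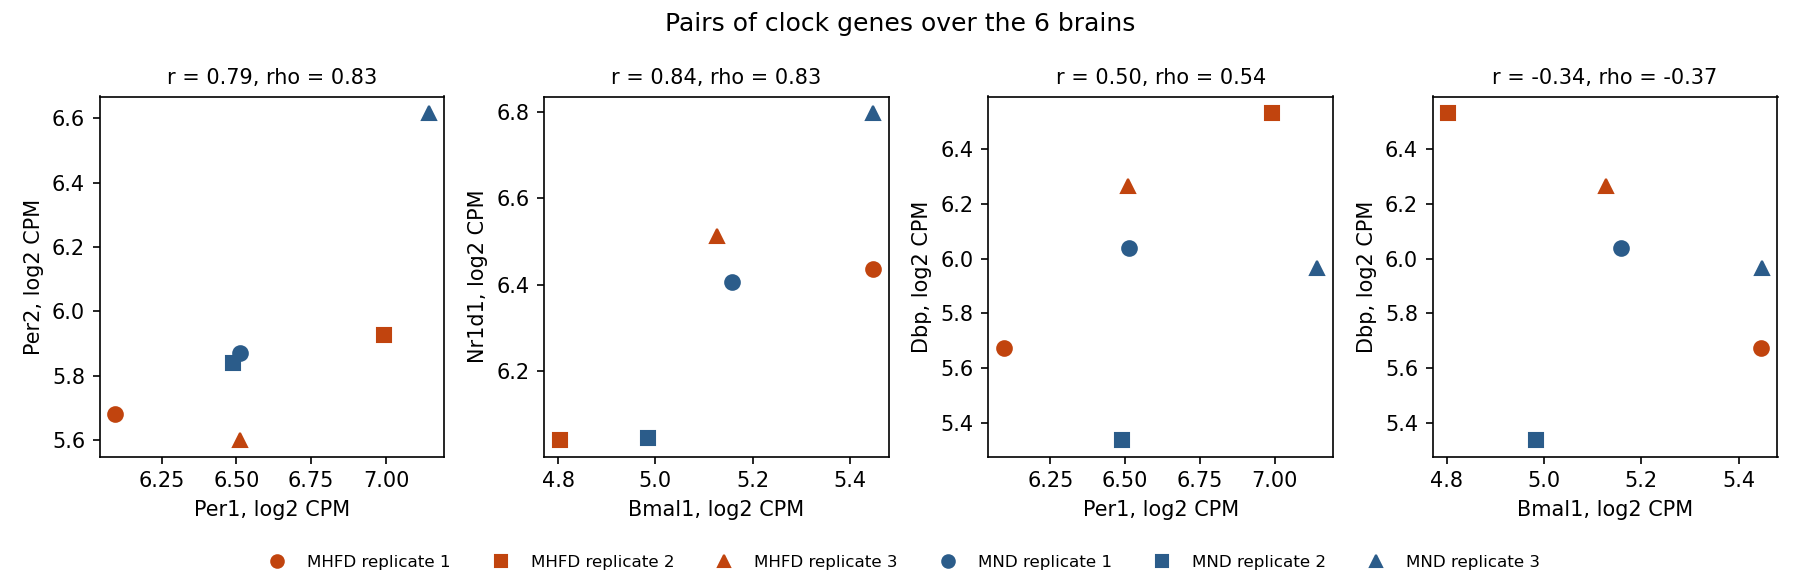
Log2 CPM of pairs of genes, 1 point for each library, with Pearson's r and Spearman's rho over the 6 libraries; orange marks MHFD, blue marks MND and the symbol the replicate number. Per1 with Per2 (r = 0.79) and Bmal1 with Nr1d1 (r = 0.84) have the largest r of the 10 pairs, and Bmal1 with Dbp (r = -0.34) the most negative.

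The ratio of 2 genes in the same library does not depend on how libraries are scaled to each other. The log2 ratio of Per1 to Bmal1 was 0.65, 2.19 and 1.38 in the MHFD brains, against 1.36, 1.51 and 1.70 in the MND brains. The MHFD values enclosed all MND values. For Dbp to Bmal1, the log2 ratio was 0.23, 1.73 and 1.14 in the MHFD brains, against 0.88, 0.35 and 0.52 in the MND brains. Here too the MHFD libraries held both the lowest and the highest value, with MHFD replicates 1 and 2 at the ends. In linear terms, a library held 1.17 Dbp counts for each Bmal1 count in MHFD replicate 1 and 3.32 in MHFD replicate 2.

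The ratio of Nr1d1 to Bmal1 was the steadiest, with a range of 0.40 on the log2 scale over all 6 libraries against 1.54 for Per1 to Bmal1, 1.50 for Dbp to Bmal1 and 0.94 for Per2 to Bmal1. Group means of the log2 ratio of Nr1d1 to Bmal1 were 1.20 ± 0.20 in MHFD and 1.22 ± 0.15 in MND (SD, n = 3 each). For Dbp to Bmal1 they were 1.03 ± 0.76 and 0.58 ± 0.27, for Per1 to Bmal1 1.41 ± 0.77 and 1.52 ± 0.17, and for Per2 to Bmal1 0.61 ± 0.46 and 0.91 ± 0.23, in the same order. The groups overlapped for each of the 4 ratios. The difference of the means, MHFD minus MND, was 0.45 for Dbp to Bmal1 and -0.30 for Per2 to Bmal1, in each case smaller than the SD of the MHFD group and larger than that of the MND group; for the other 2 ratios it was smaller than both SDs. No p is given for these ratios.

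**Figure D5:**
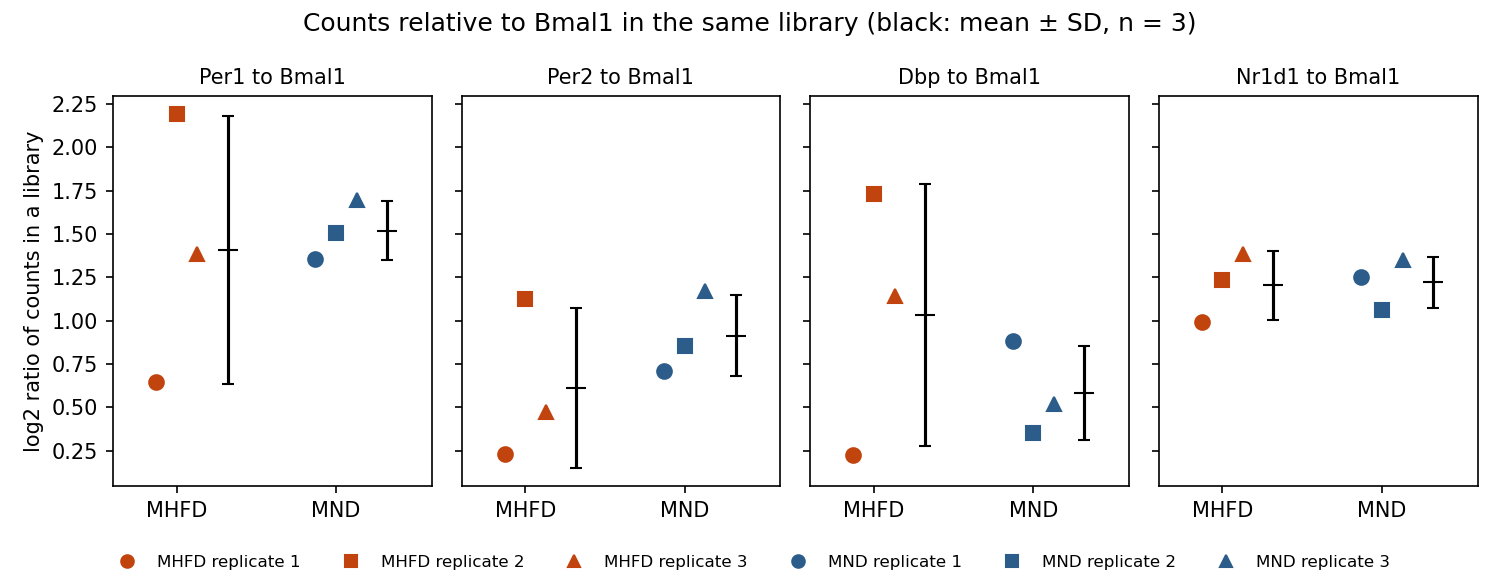
Log2 ratio of the counts of Per1, Per2, Dbp and Nr1d1 to those of Bmal1 in the same library (vertical axis), by group, with group mean ± SD in black (n = 3). MHFD replicates 1 and 2 lie at opposite ends for Per1 and Dbp, and the 6 libraries lie close together for Nr1d1.

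Dbp was also set beside all other genes. Among the 11676 genes that averaged 5 CPM or more, the 2 genes with the largest r with Dbp over the 6 libraries were ENSRNOG00000020353 (r = 0.998) and ENSRNOG00000027503 (r = 0.990), and the 2 with the most negative r were ENSRNOG00000051238 (r = -0.998) and ENSRNOG00000015508 (r = -0.991). They moved over a narrower range than Dbp: ENSRNOG00000020353 lay between 22.4 CPM in MND replicate 2 and 28.1 CPM in MHFD replicate 2. ENSRNOG00000051238 ran from 50.3 CPM in MHFD replicate 2 to 68.6 CPM in MND replicate 2. With 6 libraries and this many genes the extremes of r lie close to 1 and -1, and these genes were picked for it.

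The level of the 5 genes was also set beside the total count of the library, the share of counts in its 10 most abundant genes, and the first 2 principal components of all genes. Over these 20 relations the lowest adjusted p from the exact permutation test of Pearson's r was 0.705. The largest r was that of Dbp with the share of the 10 most abundant genes, 0.79 (rho 0.77, exact permutation p = 0.0667 and 0.103), and it was 0.56 without the 2 libraries farthest from the median of that share. This share was 17.1% and 18.3% in MHFD replicates 2 and 3, where Dbp was highest, and between 13.4% and 14.7% in the other 4 libraries. Its part in the level of Dbp was not tested.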

How the data were processed

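Brain RNA of 3 MHFD and 3 MND offspring at day 21 was sequenced by a service company. The authors deposited whole counts for each gene, without normalization. Per the labels, the submitters' processing notes list Bowtie and mm10. The identifiers are of rat Ensembl, and 0 of 32623 matched the mouse table at hand. The counting program and annotation release are not given in the sources used here. In every library more genes held 4 counts than 3 or 5, so a count may not be 1 fragment. Libraries were grouped by sample title.

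Differences were tested in R 4.3.3 with edgeR 4.0.16 over the whole table: filterByExpr (minimum count 10, minimum total 15), TMM scaling, and the quasi-likelihood test with no term beside the group. P-values were adjusted over all tested genes (Benjamini-Hochberg), with a threshold of 0.05. The standard error was taken as log2 fold change over the root of F, and intervals are at 95%. Log2 CPM used a prior count of 2. DESeq2 1.42.0, limma-voom (limma 3.58.1), other scalings, no filter, counts divided by 4, a replicate block and leaving out each library were alternatives. Correlations over the 6 libraries used exact permutation tests of all pairings (scipy 1.17.1 and numpy 2.4.6 in Python 3.11.15). The edgeR fit was checked on simulated counts, and the permutation test and adjustment of the correlations on small cases with known answers. DESeq2 and limma-voom were not checked in this way. No label says that replicates share a litter or differ in dam, and p-values measure the spread between these 6 samples.

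The members and the gene lists were chosen with earlier results of these data known. Named genes were the 5 members and, with no symbols at hand, the 2 genes most like and the 2 most opposed to Dbp at a mean of at least 5 CPM. Planned lists of other clock genes, of glucocorticoid- and activity-induced genes and of cell type markers were not run, as the identifiers were not paired with symbols.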

Additional observations from a re-analysis of the deposited data

How the results depend on the processing

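For the 5 genes, 13 alternatives gave 65 values. None had an adjusted p under 0.05, and the lowest was 0.271, for Dbp without MHFD replicate 1. The direction held in 59 of the 65. It turned only when a library was left out: for Per1 to 0.0234 without MHFD replicate 1 and 0.0788 without MND replicate 3, for Bmal1 to 0.0885 without MHFD replicate 2 and 0.0772 without MND replicate 3, and for Nr1d1 to 0.0268 and 0.11 without the same libraries as Bmal1. Across the fits that leave out a library, values on the log2 scale spanned -0.43 to 0.0788 for Per1, -0.55 to -0.11 for Per2, -0.24 to 0.0885 for Bmal1, 0.19 to 0.59 for Dbp and -0.27 to 0.11 for Nr1d1. Under the other 7 alternatives it moved little, from 0.38 to 0.40 for Dbp and from -0.41 to -0.37 for Per2.

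Over all genes, 1 had an adjusted p under 0.05 in edgeR's quasi-likelihood test. The count was 196 with DESeq2's Wald test, 0 with limma-voom, 0 with counts divided by 4 and 0 with the replicate block, beside 1424, 1371 and 1078 genes before adjustment. Leaving out a library gave from 0 to 28, and the count at an unadjusted p under 0.05, 1456, ran from 818 to 2904, the highest of each without MHFD replicate 1. The cause was not tested.

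With the replicate number as a block, the log2 fold changes were -0.18, -0.37, -0.0705, 0.38 and -0.0869 for Per1, Per2, Bmal1, Dbp and Nr1d1, and no call on these genes changed. By the labels, same-numbered libraries share only a number. Their deviations from the group means correlated at -0.0866, 0.00108 and -0.144 across genes. A link between them that acts on few genes was not tested.

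Of the 10 pairs, 8 had a positive r, with values near 0 for Per2 with Dbp (0.0305) and Dbp with Nr1d1 (0.0696). The pairs share genes, and the share of positive r among all pairs of genes was not computed. The number of positive pairs ran between 5, without MND replicate 3, and 10 when a library was left out. The 100 values of r under the alternatives had the opposite sign in 17 cases. With Spearman's rho these were Per1 with Bmal1 (0.0857), Per2 with Nr1d1 (-0.0857) and Dbp with Nr1d1 (-0.14). Without the 2 farthest libraries they were Per1 with Nr1d1 (-0.23), Per2 with Bmal1 (-0.92), Per2 with Nr1d1 (-0.64) and Bmal1 with Dbp (0.12). Leaving out each library, r ran from -0.94 to 0.25 for Per1 with Bmal1, -0.61 to 0.58 for Per1 with Nr1d1, -0.65 to 0.65 for Per2 with Bmal1, -0.0910 to 0.21 for Per2 with Dbp, -0.76 to 0.68 for Per2 with Nr1d1, -0.92 to 0.19 for Bmal1 with Dbp and -0.59 to 0.69 for Dbp with Nr1d1. With 3 animals a group, changes within the 95% intervals given are not excluded.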
